A study of Homo sapiens with 8 samples.

Results

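The guanylate-binding proteins (GBPs) are a family of 7 human genes, GBP1 to GBP7, and the H3K4me3 at their promoters was examined in U2OS cells, a line established from a human osteosarcoma. All 7 genes were chosen by name and lie in a single cluster on chromosome 1, and they were followed among 20033 protein-coding genes with an annotated promoter. The libraries came from WT clones and from ZBTB48 KO clones, 3 of each, and every clone had been given 250 U/ml IFNγ for 24 h. ZBTB48 is a zinc finger protein that binds telomeric repeats and a set of gene promoters. Each library came from its own clone of the line, so the spread within a genotype is a spread between clones. There was no untreated library, so no induction by IFNγ could be measured and the comparisons are between the genotypes under IFNγ alone. The 2 WT inputs were not analysed here. The data were lists of broad H3K4me3 peaks, 1 list per library, with positions on GRCh38 and no read counts, so the depth of each library is unknown here.

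GBPs are large GTPases of the dynamin superfamily that cells make in response to interferons. They assemble on bacteria and on the membranes of vacuoles that hold pathogens, where they help to expose the contents to the caspases of the inflammasome. IFNγ acts through its receptor and the kinases JAK1 and JAK2, and the genes that respond to it often carry gamma-activated sites (GAS) or interferon-stimulated response elements (ISRE), the latter bound by IRF1. GBP1, GBP2 and GBP5 end in a motif to which a lipid is attached, which lets them bind membranes. H3K4me3, the trimethylation of histone H3 at lysine 4, marks nucleosomes around the start of active or poised genes and usually extends from the 5′ end into the first part of the gene.

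The sequence just before the 5′ end is shown for the members found in the RefSeq promoter table (build GRCh38.p14), since the peaks of the family differed in how far they reached over this stretch. GBP1, GBP3, GBP4, GBP6 and GBP7 were in the table and GBP2 and GBP5 were not. Each sequence gives the 200 bases before the 5′ end on the strand of the gene, and capitals mark matches to the ISRE core GAAANNGAA or the GAS core TTCNNNGAA on either strand. The positions are chr1:89065209-89065408 for GBP1, chr1:89022867-89023066 for GBP3, chr1:89198943-89199142 for GBP4 and chr1:89176004-89176203 for GBP7, all on the minus strand, and chr1:89363859-89364058 on the plus strand for GBP6.
GBP1: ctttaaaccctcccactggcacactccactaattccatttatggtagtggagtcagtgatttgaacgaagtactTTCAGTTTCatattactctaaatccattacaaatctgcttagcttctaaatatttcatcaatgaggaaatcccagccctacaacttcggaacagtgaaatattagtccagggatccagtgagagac
GBP3: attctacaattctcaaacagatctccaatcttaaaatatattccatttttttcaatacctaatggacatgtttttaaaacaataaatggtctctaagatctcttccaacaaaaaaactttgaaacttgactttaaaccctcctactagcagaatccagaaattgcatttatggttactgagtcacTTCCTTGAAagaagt
GBP4: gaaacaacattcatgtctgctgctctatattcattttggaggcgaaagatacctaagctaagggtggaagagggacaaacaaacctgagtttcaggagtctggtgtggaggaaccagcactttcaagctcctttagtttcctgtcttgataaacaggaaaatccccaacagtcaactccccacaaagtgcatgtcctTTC
GBP6: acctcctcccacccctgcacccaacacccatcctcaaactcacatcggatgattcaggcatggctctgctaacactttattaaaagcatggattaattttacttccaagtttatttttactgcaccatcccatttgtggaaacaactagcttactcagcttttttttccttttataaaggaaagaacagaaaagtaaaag
GBP7: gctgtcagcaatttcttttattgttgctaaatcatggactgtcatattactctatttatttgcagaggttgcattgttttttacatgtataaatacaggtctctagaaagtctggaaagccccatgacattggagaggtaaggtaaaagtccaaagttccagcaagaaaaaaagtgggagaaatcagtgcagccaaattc

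The search itself covered 250 bases before to 50 bases after the 5′ end, with +1 as the first base of the gene. GBP1 held ISRE cores from -126 to -118 on the opposite strand and from 38 to 46 on its own strand. GBP3 held a GAS core from -15 to -7 and an ISRE core from 4 to 12. In GBP4 an ISRE core lay across the 5′ end, from -3 to 6, so that only its first 3 letters fall in the stretch printed above. GBP6 and GBP7, the members without a peak, held neither motif in this window. Of 15345 protein-coding promoters in the same table, 7.04% held the ISRE core, 6.95% the GAS core and 0.775% both. TTAGGG, the unit of the telomere repeat, was present in 8.72% of promoters and in none of these 5. The 5 windows had a GC content of 32.0% to 43.3% against a median of 63.0% over all promoters, and their observed over expected CpG ratio was 0 to 0.27 against a median of 0.77. All 5 members therefore have promoters poor in CpG, and GBP3 and GBP7 contain no CpG in the window at all.

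The 6 lists were not of one kind. The median peak width in WT replicates 1 and 2 was 2297 and 2353 bp, against 1487 bp in WT replicate 3 and 1275 to 1388 bp in the KO libraries. The median fold enrichment, the authors' ratio of ChIP signal over local background, was 13.4 and 14 in WT replicates 1 and 2 and 4.19 to 4.65 in the other 4 lists. How far this difference between the lists enters the peak lengths of the members was not tested. Each comparison is therefore also described for WT replicate 3 beside the 3 KO libraries, which have lists of similar width, with no test since 1 library stands for the WT. Of the mesenchymal markers, RUNX2, SPARC, COL1A1 and VIM were marked within 1 kb of the 5′ end in all 6 libraries and COL1A2 and TWIST1 in none, while the 4 blood markers, PTPRC, CD3E and SPI1 among them, had none and, of the epithelial markers, EPCAM and KRT8 had one in all 6 and CDH1 in none.

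At GBP1, GBP2, GBP3, GBP4 and GBP5 a peak lay within 1 kb of the 5′ end in each of the 6 libraries, and GBP6 and GBP7 had none within 3 kb in any. Every library, WT or KO, thus marked the same 5 of the 7 promoters, beside 65.1% of all protein-coding promoters marked in all 6 lists. The genotypes differed in where these peaks began and ended. The 5′ end itself lay under a peak at 5 members in each of the 3 WT libraries, and at 4, 3 and 2 members in KO replicates 1, 2 and 3. GBP3 and GBP4 had a peak over the 5′ end in all 6 libraries, GBP2 in 5, GBP1 in 4 and GBP5 in the 3 WT libraries alone. Of 12748 promoters with the 5′ end under a peak in all 3 WT libraries, 3.61% lacked this in at least 1 KO library and 0.486% lacked it in all 3, beside 3 and 1 of the 5 members.

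**Figure D1:**
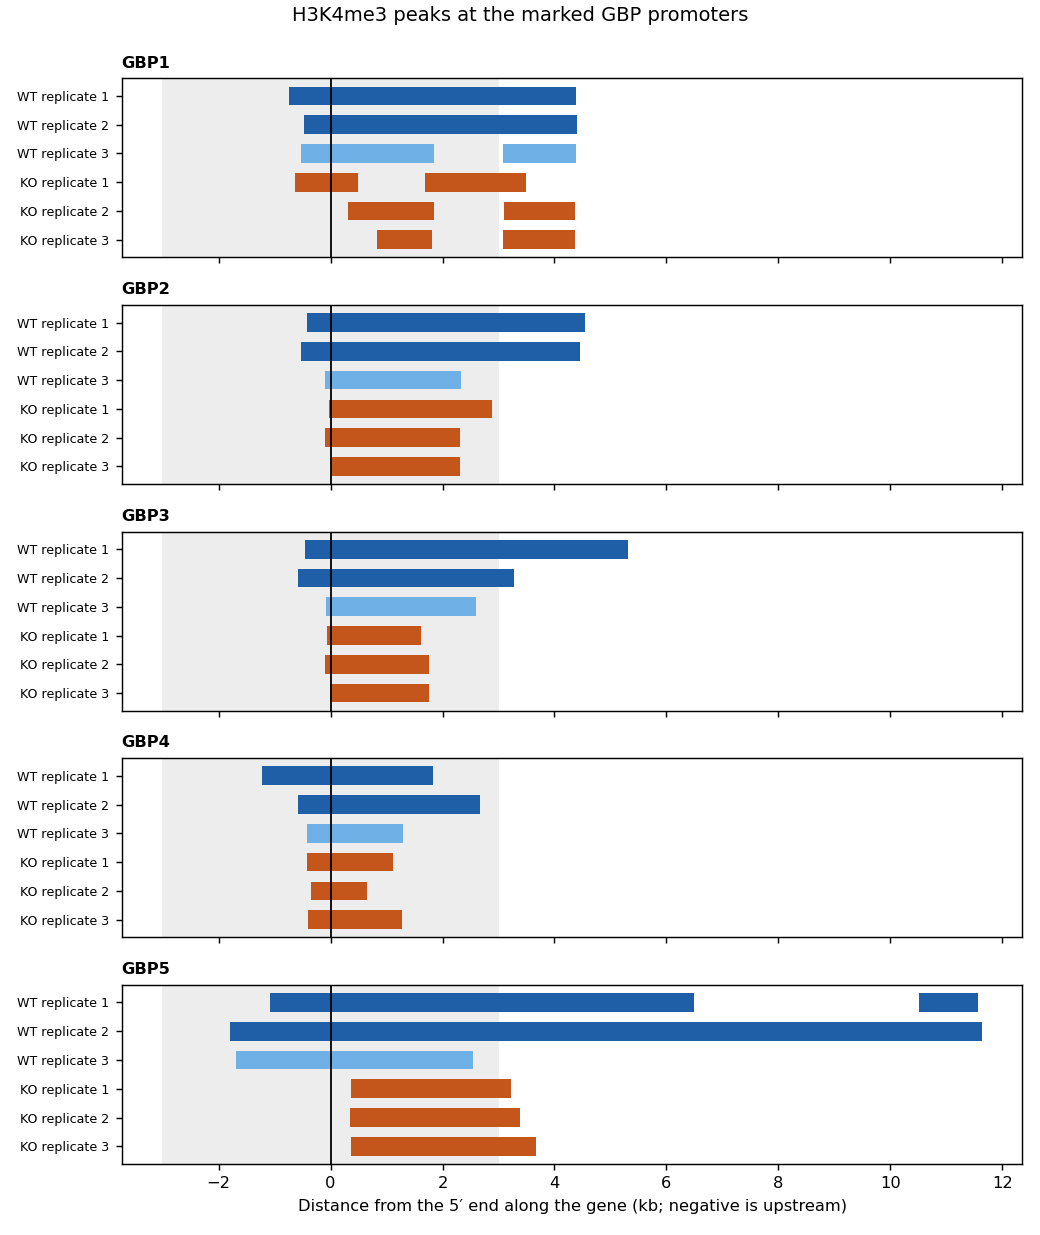
H3K4me3 peaks at GBP1 to GBP5 in the 6 libraries. The x axis is the distance from the 5′ end along the gene in kb, each bar is 1 peak (dark blue, WT replicates 1 and 2; light blue, WT replicate 3; orange, KO), the black line is the 5′ end and the shaded band is 3 kb on either side. At GBP5 the 3 WT bars cross the line and the 3 KO bars start 351 to 364 bp after it.

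GBP5, whose product promotes assembly of the NLRP3 inflammasome and hinders furin, the protease that matures viral glycoproteins, was the member whose 5′ end lay under a peak in the WT libraries alone. The gene (ENSG00000154451) lies on the minus strand at chr1:89256189-89272860, with its 5′ end at 89272860 and exon 1 from 89272452. Upstream of the 5′ end, peaks covered 1088, 1801 and 1695 bp in WT replicates 1, 2 and 3 and 0 bp in each KO library. All 3 WT peaks crossed the 5′ end, and the 3 KO peaks began 364, 351 and 359 bp after it, within exon 1 and within 13 bp of each other. The WT peaks ended 6490, 11629 and 2547 bp after the 5′ end, in exon 7, intron 11 and intron 2. The KO peaks ended 3227, 3390 and 3667 bp after it, in intron 2, exon 3 and intron 3. The KO peaks therefore reached further into the gene than that of WT replicate 3, while they stopped short of its 5′ end. In WT replicate 2 the peak was 13431 bp wide and ran through most of the gene, and in WT replicate 1 a peak of 7579 bp was followed by a separate one of 1064 bp near the same far edge.

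Within 3 kb on either side of the 5′ end of GBP5, the covered length was 4089, 4802 and 4243 bp in the WT libraries and 2637, 2650 and 2642 bp in the KO libraries. The groups did not overlap, the WT mean being 4378 ± 375 bp and the KO mean 2643 ± 6.56 bp (SD, n = 3 each). The two-sided exact permutation p was 0.1, the lowest that 3 libraries against 3 can give, and 0.196 after Benjamini-Hochberg adjustment over the 14422 promoters with any peak in this window. No promoter could reach the customary 5% level in this design, and a WT excess without overlap was found at 50.8% of those promoters, so such an excess at a member does not set it apart from the background. On the upstream side alone, WT was above KO without overlap at 41.8% of promoters.

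The size of the step at GBP5 was less common. WT replicate 3 exceeded the highest KO library by 1695 bp on the upstream side. Upstream cover in at least 1 of WT replicate 3 and the KO lists was found at 13782 promoters. Of these, 45.2% had WT replicate 3 above each KO library by any amount. A gap as large as that of GBP5 or larger was found at 12 (0.0871%), GBP5 included. GBP5 had the largest upstream gap of the members, and the upstream side was added after the data were seen. The share of 0.0871% therefore describes a step already picked out and does not test it. The gap also uses 1 WT library, whose GBP5 peak had a fold enrichment of 2.26 and was absent at a minimum of 4. The nearer window of 1 kb on either side holds the same peak edges, so its values are not a separate observation of the step. The covered length of GBP5 there was 2001 bp in each WT library, which is the whole window. In the KO libraries it was 637, 650 and 642 bp. The exact permutation p for this window was 0.1 and 0.258 after adjustment, and a WT excess without overlap was found at 38.7% of promoters covered there. WT replicate 3 exceeded the highest KO library by 1351 bp in that window, a gap reached or passed by 0.116% of promoters, GBP5 included.

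**Figure D2:**
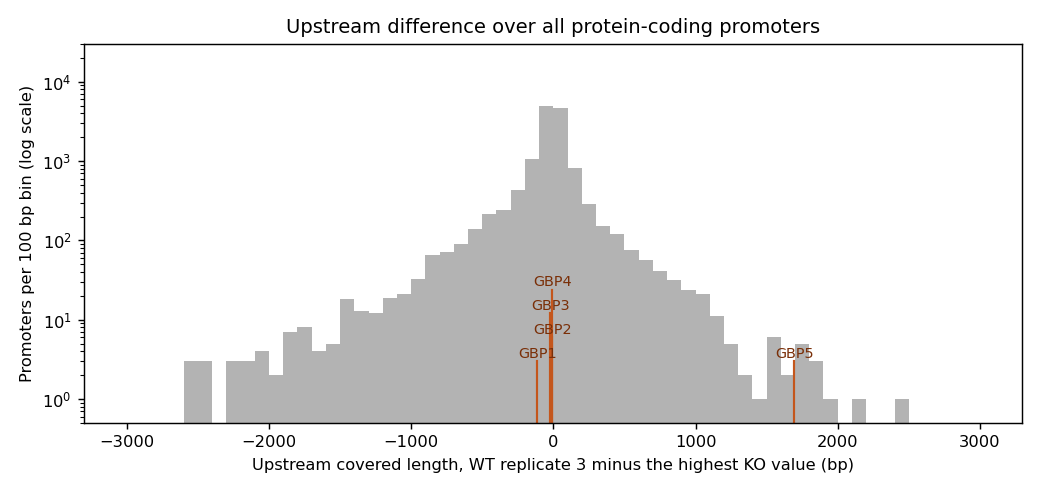
Upstream covered length of WT replicate 3 minus the highest KO library, in bp on the x axis, for 13782 promoters in bins of 100 bp, with the number of promoters on a log scale. Orange lines mark the 5 marked members and their height carries no value. GBP5 sits at 1695 bp, and GBP1, GBP2, GBP3 and GBP4 sit at -114, -6, -21 and -6 bp.

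Since the lists differ in width throughout, the covered length of each member was also given as its percentile among the covered promoters of the same list. In the 3 kb window GBP5 stood at the percentiles 75.3, 91.9 and 98.8 in WT and 84.5, 90.0 and 92.0 in KO. These overlapped, with means of 88.7 ± 12.1 and 88.8 ± 3.92 (SD, n = 3; exact permutation p = 0.9, 0.999 adjusted). In the 1 kb window GBP5 stood at 71.8, 69.4 and 91.9 in WT and at 2.9, 3.1 and 3.5 in KO. This was a difference of 74.6 points (exact permutation p = 0.1, not adjusted), beside 6.96% of promoters with WT above KO without overlap on this scale. Each WT value is the shared rank of the promoters whose window is covered in full, the highest in its list. Over 3 kb GBP5 thus lay in the upper part of every list, and over 1 kb it was among the shortest marked promoters of the KO lists. The fold enrichment of the GBP5 peak was 2.26 in WT replicate 3 and 2.32, 2.17 and 2.33 in KO replicates 1 to 3, at percentiles 1.8, 1.9, 1.1 and 1.3 of the fold enrichment in their lists. In those 4 libraries the peaks at GBP5 were long and low, and the −log10 q of the peak in KO replicate 1 was 2.85.

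GBP5 was among 47 promoters that had the 5′ end under a peak in 3 WT and 0 KO libraries while each KO library kept a peak within 3 kb. Ranked by the gap between the lowest WT and the highest KO covered length over the 6 libraries, the 5 at the top were RNF151 (1510 bp), GBP5 (1439 bp), LIG4 (1351 bp), PRRT1 (1156 bp) and PDGFRA (1115 bp). At RNF151 and PRRT1 the KO peaks stopped before the 5′ end, upstream of the gene, with no covered bp on the downstream side. At LIG4 and PDGFRA the KO libraries had peaks on both sides and left the 5′ end between them. GBP5 was the only 1 of these 5 with no KO peak upstream and 2637 to 2650 bp covered downstream. The form was not particular to GBP5, since COL1A1, also among the 47, showed it with a smaller gap of 171 bp. Upstream, COL1A1 had 588, 640 and 130 bp in WT and 0 bp in each KO library. Downstream it had 2425, 2119 and 2278 bp in KO.

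GBP1, which binds bacterial lipopolysaccharide and leads the coat of GBPs on bacteria, had a peak over its 5′ end in all 3 WT libraries and in 1 of the 3 KO libraries, which differed widely among themselves. The gene (ENSG00000117228) lies on the minus strand at chr1:89051882-89065360, with the 5′ end at 89065208. The covered length within 3 kb was 3746, 3474 and 2368 bp in WT and 2442, 1537 and 979 bp in KO. KO replicate 1 lay above WT replicate 3, so the groups overlapped, with means of 3196 ± 729.85 bp and 1653 ± 738 bp (SD, n = 3; exact permutation p = 0.2, 0.245 adjusted). On the upstream side the values were 745, 473 and 526 bp in WT and 640, 0 and 0 bp in KO. KO replicate 1 had a peak of 1135 bp over the 5′ end, and the KO peaks nearest to it started 317 bp after the 5′ end in replicate 2 and 831 bp after it in replicate 3, within intron 1. Within 1 kb the groups did not overlap, at 1746, 1474 and 1527 bp in WT and 1135, 684 and 170 bp in KO (exact permutation p = 0.1, 0.258 adjusted).

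The body of GBP1 carried further H3K4me3. In WT replicates 1 and 2 a single peak of 5126 and 4882 bp ran from upstream of the 5′ end into intron 2. In WT replicate 3, KO replicate 2 and KO replicate 3 the mark was split into a peak at the start of the gene and an inner peak of 1300, 1277 and 1284 bp, which together lay within chr1:89060822-89062128. The edges of the inner peak differed by no more than 23 bp between these 3 libraries, and it was as wide in the KO libraries as in WT replicate 3. The stretch between the peaks, chr1:89062129-89063354, contains exon 2. KO replicate 1 differed from the others, with a peak of 1796 bp from 1694 to 3489 bp after the 5′ end across this very stretch and 1199 bp uncovered between it and the peak at the 5′ end.

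GBP3 takes part in the coat that GBP1 forms on bacteria. The gene (ENSG00000117226) occupies chr1:89006679-89022894 on the minus strand, with the 5′ end at 89022866. The covered length within 3 kb was 3464, 3577 and 2679 bp in WT and 1690, 1865 and 1770 bp in KO. The groups did not overlap, and the difference of 1465 bp between the means of 3240 ± 489 bp and 1775 ± 87.6 bp (SD, n = 3) gave an exact permutation p of 0.1, 0.196 adjusted. This difference lay mostly on the downstream side. There, WT peaks ended 5320, 3278 and 2598 bp after the 5′ end and KO peaks 1617, 1763 and 1751 bp after it. All 3 WT peaks ended in intron 2 and all 3 KO peaks in intron 1. On the upstream side the values were 463, 576 and 80 bp in WT and 72, 101 and 18 bp in KO, so that WT replicate 3 lay among the KO libraries there. The genotypes were therefore separate without overlap at the edge inside the gene for GBP3 and the edge outside it for GBP5. In WT replicates 1 and 2 the other edge of each gene's peak also lay further out than in every KO library. WT was above KO without overlap at 48.4% of promoters covered downstream and 41.8% of those covered upstream, so neither separation sets its member apart. As a percentile in the 3 kb window GBP3 overlapped, at 55.9, 62.7 and 84.3 in WT and 33.7, 57.4 and 58.2 in KO.

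GBP4, another GBP of the bacterial coat, had a peak of 993 to 3245 bp over its 5′ end in every library. The gene (ENSG00000162654) occupies chr1:89181144-89198942 on the minus strand, with the 5′ end at its upper limit. The covered length within 3 kb was 3058, 3245 and 1707 bp in WT and 1530, 993 and 1691 bp in KO. WT replicate 3 lay 16 bp above KO replicate 3, so the groups were separate by a margin far smaller than their spread, with means of 2670 ± 839 bp and 1405 ± 365 bp (SD, n = 3; exact permutation p = 0.1, 0.196 adjusted). The peak of GBP4 started 414 bp before the 5′ end in WT replicate 3 and 420, 349 and 407 bp before it in the KO libraries, close to each other. The first base of a lncRNA on the opposite strand, ENSG00000284734, also lies under these peaks, at 89198714 in intron 1 of GBP4, so the mark at this place cannot be assigned to one of the transcripts.

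GBP2, which like GBP5 hinders furin, occupies chr1:89106132-89150456 on the minus strand (ENSG00000162645), with the 5′ end of its reference transcript at 89126114. The covered length within 3 kb was 3427, 3526 and 2438 bp in WT and 2904, 2427 and 2306 bp in KO. The groups overlapped, with means of 3130.3 ± 602 bp and 2546 ± 316 bp (SD, n = 3; exact permutation p = 0.2, 0.245 adjusted). WT replicate 3 and KO replicates 2 and 3 had nearly the same peak, which ended 2335, 2318 and 2317 bp after the 5′ end and started 102 and 108 bp before it in the first 2 of them and 12 bp after it in KO replicate 3. The missing 5′ end of GBP2 in KO replicate 3 was therefore a matter of 12 bp, unlike the 351 bp or more at GBP5. As a percentile of its list GBP2 stood lower in WT, at 54.8, 61.1 and 76.3, than in KO, at 90.0, 84.3 and 84.7. This is a KO excess without overlap on that scale (difference -22.3 points, exact permutation p = 0.1, 0.56 adjusted), which 10.7% of covered promoters showed.

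GBP6 (ENSG00000183347, chr1:89364059-89388160, plus strand) and GBP7 (ENSG00000213512, chr1:89131742-89176009, minus strand) had no covered bp within 3 kb of the 5′ end in any of the 6 libraries. A promoter without a peak is one at which nothing was called in that list, and H3K4me3 below the threshold of the caller would give the same result. The 5′ end of GBP7, at 89176003, lies between those of GBP2 and GBP4, which were both marked in every library, so the unmarked promoter sits among marked neighbours. GBP6 is the last gene of the cluster and the only member on the plus strand.

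**Figure D3:**
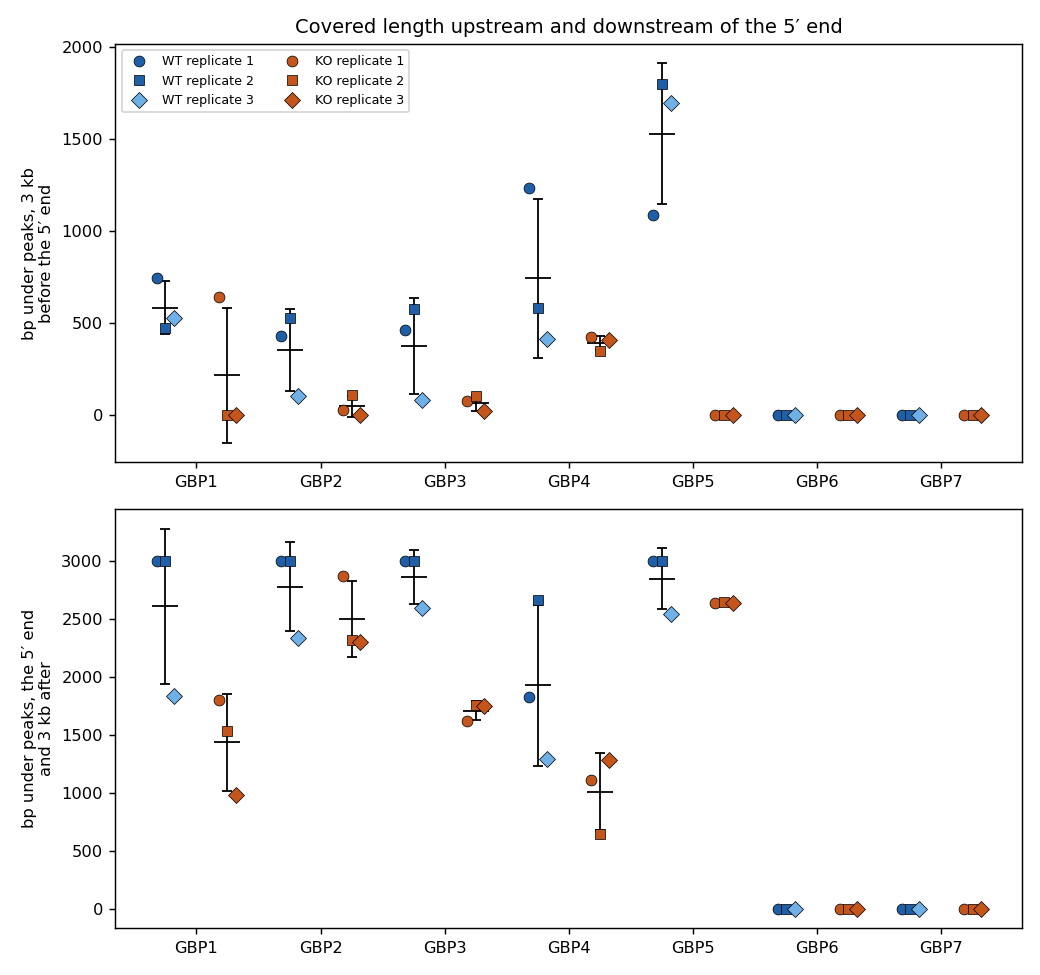
Covered length in bp on the y axis, upstream of the 5′ end in the upper panel and from the 5′ end downstream in the lower panel, for the 7 members. Points are libraries (blue, WT, with replicate 3 lighter; orange, KO), and bars are the mean ± SD of 3 libraries. Upstream, GBP5 is at 1088 to 1801 bp in WT and at 0 in KO, and downstream, GBP3 is at 2599 to 3001 bp in WT and at 1618 to 1764 bp in KO, while GBP6 and GBP7 are at 0 throughout.

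Across the family, WT was above KO without overlap at 3 of 7 members (GBP3, GBP4 and GBP5) for the covered length in 3 kb, beside 50.8% of covered promoters. For the upstream side the number was 1 (GBP5), beside 41.8% of promoters covered upstream. For the downstream side it was 3 (GBP1, GBP3 and GBP4), beside 48.4% of promoters covered downstream. No member had KO above WT without overlap, which 0.111% of covered promoters did. On the percentile scale in the 3 kb window, no member had WT above KO without overlap, beside 7.13% of covered promoters, and GBP2 had KO above WT. WT replicate 3 exceeded each KO library in covered length at GBP3, GBP4 and GBP5, beside 54.4% of promoters covered in those 4 lists. The median difference between the WT and KO means was 1265 bp over the 7 members, 1465 bp over the 5 marked ones and 965 bp over all covered promoters. The sides of the promoter at which the groups were separate were not the same in each member.

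**Figure D4:**
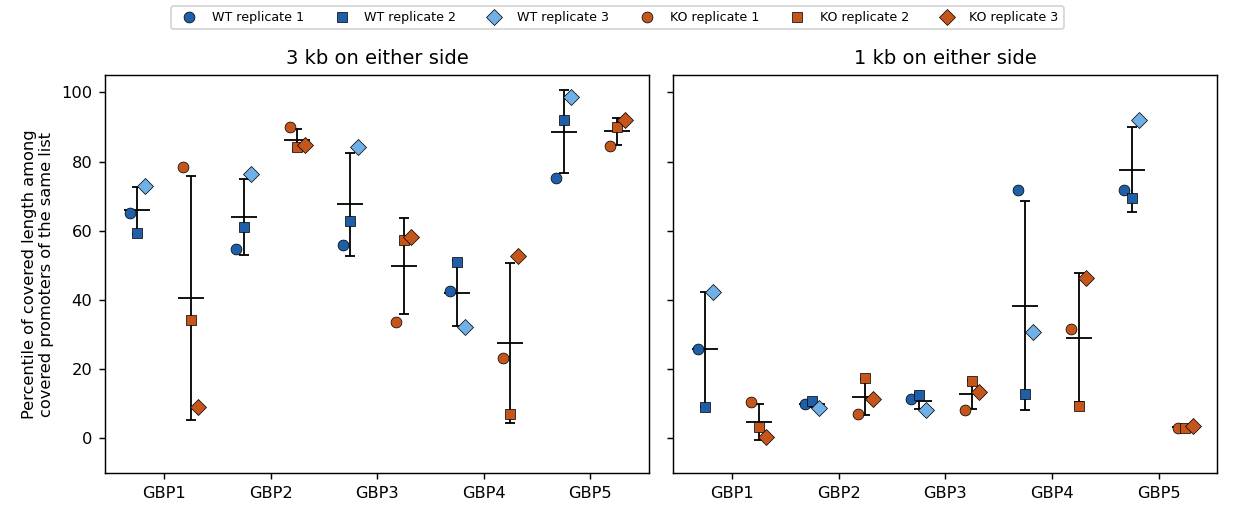
Percentile of the covered length of GBP1 to GBP5 among the covered promoters of the same list, for windows of 3 kb (left) and 1 kb (right) on either side of the 5′ end. Points are libraries, and bars are the mean ± SD of 3 libraries. GBP5 stands at 84.5 to 92.0 in the KO libraries in the left panel and at 2.9 to 3.5 in the right panel.

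Summed over the members, the upstream covered length was 3954, 3953 and 2817 bp in WT and 1159, 558 and 425 bp in KO. The downstream sum was 13830, 14671 and 10618 bp in WT and 10044, 8914 and 8963 bp in KO. In WT replicate 3, 1695 of the 2817 upstream bp belonged to GBP5, and without it the sum of 1122 bp lay between those of KO replicates 1 and 2. The separation of WT replicate 3 from every KO library in the upstream sum therefore rested on 1 member.

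The cluster was also measured as a whole, from 10 kb below the first to 10 kb above the last member gene (chr1:88996679-89398160). It held 6, 5 and 6 peaks in WT and 6 in each KO library, all of which lay at or within the 5 marked members. These covered 27592, 30388 and 14735 bp in WT and 11919, 11139 and 11339 bp in KO. The means were 24238 ± 8348 bp and 11466 ± 405 bp (SD, n = 3), and WT replicate 3 lay 3269 bp above the KO mean, so the excess of 12773 bp came mostly from WT replicates 1 and 2. Peaks covered 6.87%, 7.57% and 3.67% of the cluster in WT and 2.97%, 2.77% and 2.82% in KO, against 1.09% to 2.15% of chromosome 1 in the 6 lists. Beside the cluster, the shared promoter of KYAT3 and RBMXL1 had 4440, 4312 and 2593 bp covered within 3 kb in WT and 2624, 2475 and 2330 bp in KO, which overlapped. LRRC8B, on the other side, had 2651, 2768 and 1846 bp in WT and 1705, 1643 and 1507 bp in KO, and ENSG00000288629 had no peak.

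GBP genes are related in sequence, and the authors removed reads that map to several places. The share of 100-base words of each window that occur elsewhere in the genome was 2.1% or less on either side of every member, except for 14.2% in the 3 kb before GBP1. It was 0% upstream of GBP5 and 1.5% in the stretch between the peaks of GBP1. The part of repeated sequence in the values at GBP1 was not tested.

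The genes that carry the IFNγ signal to the GBP genes were marked in both genotypes. All 8 genes of this list, among them IFNGR1, IFNGR2, JAK1, JAK2 and IRF1, had a peak within 1 kb in all 6 libraries, beside 65.1% of all protein-coding promoters. WT was above KO without overlap in covered length at 4, beside 50.8% of covered promoters. The gaps between the lowest WT and the highest KO library were 219 bp at IFNGR1, 190 bp at STAT2, 150 bp at JAK2 and 55 bp at IFNGR2. IRF1 had 4223, 4491 and 3046 bp in WT and 3601, 3002 and 2975 bp in KO, and its 5′ end was under a peak in 3 WT and 2 KO libraries. On the upstream side of IRF1 the values were 1222, 1490 and 45 bp in WT and 600, 1 and 0 bp in KO, so KO replicate 1 lay above WT replicate 3 there, unlike at GBP5. The values of IRF1 were singled out after they were seen.

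Of 8 related GTPases (MX1, MX2, IRGM, IRGQ, ATL1, ATL2, ATL3 and RNF213), 5 had a peak within 1 kb in all 6 libraries, beside 65.1% of all protein-coding promoters. WT was above KO without overlap at ATL3 (by 614 bp), ATL2 (183 bp), ATL1 (179 bp) and RNF213 (66 bp), beside 50.8% of covered promoters. MX1 had no peak, and MX2, another interferon-induced GTPase, had one in 4 of the 6 libraries with 823, 0 and 399 bp covered in WT and 453, 0 and 444 bp in KO. Of 12 genes for enzymes that attach and process the lipid of GBPs and for partners of the proteins (FNTA, FNTB, PGGT1B, RCE1, ICMT, CASP4, CASP1, GSDMD, AIM2, APOL3, PIM1 and FURIN), 9 had a peak within 1 kb in all 6 libraries and 8 had WT above KO without overlap, beside the same 65.1% and 50.8%. PIM1, a kinase that holds GBP1 inactive, had the widest gap of these (832 bp), with 4927, 4262 and 4079 bp in WT and 3247, 2941 and 2073 bp in KO. APOL3, an apolipoprotein that breaks bacterial membranes together with GBP1, followed with 388 bp, then FNTA with 230 bp and FNTB with 157 bp. CASP4, which GBP coats activate, had 4076, 3813 and 3022 bp in WT and 2896, 2862 and 1469 bp in KO. CASP1 had 1321 and 625 bp in WT replicates 2 and 3 and none in the other libraries, and AIM2 had 1448 and 450 bp in KO replicates 2 and 3 alone.

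The controls ACTB and GAPDH had their 5′ end under a peak in all 6 libraries and overlapping covered lengths. CIITA, the transactivator of the MHC class II genes and the promoter on which the study centred, had 3471, 3318 and 2837 bp covered within 3 kb in WT and 0, 1275 and 0 bp in KO at its reference 5′ end. In the full lists GBP5 thus differed from CIITA, since each KO library kept a peak of 2864 bp or more inside GBP5. At CIITA, KO replicates 1 and 3 had none in the window. The GBP5 peak of KO replicate 1 was absent once −log10 q had to reach 3, and in lists of equal number. A minimum fold enrichment of 4 removed the GBP5 peak from every KO library, and from WT replicate 3 as well.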

How the data were processed

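H3K4me3 ChIP-seq was carried out on 3 WT and 3 ZBTB48 KO clones of U2OS cells under IFNγ, grouped as their labels give them. Reads were trimmed with Trimmomatic and aligned to GRCh38 with Bowtie2 2.3.5.1 by the authors, who dropped reads that were unmapped, placed at several sites or duplicated, and used, for broad peaks in each library, MACS2 2.1.1.2. Whether the peak caller used an input is not given in the sources used here. Each deposited list holds positions, a fold enrichment ratio, −log10 p and −log10 q values averaged over the peak, and a display score, which was not used. The fold enrichment and −log10 values deposited by the authors described or filtered peaks within a list. The lists hold no counts, so the depth and the counting error are unknown here, and the differential test that the authors ran on reads was not repeated.

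Positions are 1-based on GRCh38, and no peak lay beyond the end of a chromosome of the reference. The 5′ ends of MANE Select transcripts, or canonical ones, came from GENCODE release 44. Covered length counts the bp that peaks occupy within 3 kb or 1 kb of the 5′ end, and the percentile was its rank among the covered protein-coding promoters of the list. Groups were compared by two-sided exact permutation over the 20 assignments of the 6 libraries, with Benjamini-Hochberg adjustment over all covered promoters. Background percentages give the share of promoters meeting the same criterion.

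The named genes were the 7 members, other genes with a peak in the cluster, the nearest 2 protein-coding genes on each side, lists of 8 signalling genes, 8 GTPases and 12 enzymes and partners, ACTB, GAPDH, CIITA and cell type markers. Of each list at most 4 genes with the widest gap were named by this rule, with 5 genes most like GBP5 in pattern. IRF1, CASP4, CASP1, AIM2, MX1, MX2 and the region of GBP1P1 were singled out after their values were seen. Some items of these lists are not reported here singly, though the counts over the lists include them. The members and lists were chosen with earlier results of these data known. The alternatives comprised a minimum −log10 q of 3, a minimum fold enrichment of 4, lists cut to the same number of peaks, merging of peaks within 1000 bp, the other window, an overlap of at least 500 bp, the most upstream 5′ end, no margins around the cluster, the replicate number as a block, WT replicate 3 against the KO libraries and leaving out each library. The upstream and downstream sides were added after the data were seen. The code was tested on simulated lists. Analyses ran in Python 3.11.15 with numpy 2.4.6, pandas 2.3.3, scipy 1.17.1 and matplotlib 3.10.9.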

Additional observations from a re-analysis of the deposited data

How the results depend on the processing

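The WT excess in covered length kept its direction for GBP1, GBP3, GBP4 and GBP5 under every alternative run, and for GBP2 it was -108 bp with WT replicate 3 against the 3 KO libraries and 0 bp at the most upstream 5′ end, where no library had a peak. A fold enrichment of at least 4 removed the GBP5 peaks of WT replicate 3 and of the 3 KO libraries, so the groups overlapped there and the difference of 2964 bp rested on WT replicates 1 and 2 (exact permutation p = 0.4). The GBP5 peak of KO replicate 1, whose −log10 q was 2.85, dropped out under the minimum of 3 and in lists of equal number. Under either setting the GBP5 difference was 2614 bp (exact permutation p = 0.1). Lists cut to the same number of peaks also lost the peak of KO replicate 1 over the 5′ end of GBP1. The groups at GBP1 then did not overlap, with a difference of 1922 bp (exact permutation p = 0.1). Its percentile difference moved from 25.3 to 47.7 points (exact permutation p = 0.4 and 0.1). No p could reach the customary 5% level under any setting. The percentile of GBP5, with a main difference of -0.140 points, turned positive with −log10 q of at least 3 (27.963), fold enrichment of at least 4 (55.510), lists cut to the same number of peaks (27.980), WT replicate 3 against KO (9.966), the 1 kb window (74.552) and the most upstream 5′ end (0.778), and ranged from -5.194 to 6.535 when each library was left out. That of GBP2 became 38.022 with fold enrichment of at least 4, and that of GBP3 became -0.152 with the same filter and -2.067 in the 1 kb window. The difference in the number of promoters with a peak within 1 kb, 0 in the full lists, was 0.333 with −log10 q of at least 3, 1.667 with fold enrichment of at least 4, 0.667 with lists of equal number and 0.333 with an overlap of at least 500 bp, all of which leave fewer peaks or windows to count. The cluster excess was 3269 bp with WT replicate 3 alone.

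With the replicate number as a block, the mean differences were unchanged by construction, that of GBP5 being 1735 bp, and the smallest p was 0.25. Same-numbered libraries did not deviate together (correlations of -0.01, 0.017 and 0.093), so the numbers were not taken as pairs. Leaving out each library moved the difference from 1207 to 1957 bp at GBP1, 387 to 931 bp at GBP2, 1297 to 1746 bp at GBP3, 978 to 1747 bp at GBP4 and 1523 to 1880 bp at GBP5. Peak lists without read counts limit every value here to where a peak was called, not how much signal lay under it.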

Other observations

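Beyond the cluster, next to GBP6, lies GBP1P1, a transcribed pseudogene of GBP1 that is also annotated as a lncRNA, and it carried H3K4me3 as well. A region at chr1:89408432-89410192 had a peak of 1643, 1711 and 1634 bp in the WT libraries, of 1618 and 1628 bp in KO replicates 1 and 3, and none in KO replicate 2. A smaller region at chr1:89418404-89418801 had a peak of 284, 350 and 289 bp in WT, of 398 and 290 bp in KO replicates 1 and 2, and none in KO replicate 3. Where it was called, the peak of the first region had nearly the same width in both kinds of list, unlike the peaks at the members. That of the second ranged from 284 to 398 bp and was widest in KO replicate 1. The fold enrichment of the first was 3.52, 5.29 and 4.90 in WT and 3.88 and 4.56 in KO. These regions lie outside the windows of the 7 members and were chosen after their values were seen. Of the words of 100 bases in them, 0% and 1.0% occur elsewhere in the genome.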
